A study of Homo sapiens with 4 samples.

Results

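The 9 genes described here carry out glycogen synthesis and breakdown or steer it: UGP2, GYG1, GYS1, GYS2 and GBE1 build the polymer, PYGL and PYGB degrade it, and PPP1R3B and PPP1R3C regulate both processes. They were chosen by gene symbol, and all 9 were found among the 59652 genes of the count table. Total RNA depleted of rRNA was sequenced from Huh7 and PLC cells, which are wild-type human hepatocellular carcinoma lines, after 48 h in glucose-free DMEM with serum to which 5 mM (low-glucose) or 25 mM (high-glucose) glucose had been added. Each line and concentration gave 1 library, so the 4 libraries contain no replicate culture and no ratio of 25 mM to 5 mM within a line has a replicate check. Stock cultures of the study were kept in high-glucose medium.

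Glycogen is the branched glucose store of animal cells, and in the liver it is filled after a meal and drained to keep blood glucose steady. UGP2 makes UDP-glucose, glycogenin (GYG1, GYG2) starts a chain on itself, glycogen synthase (GYS1, GYS2) lengthens it and the branching enzyme GBE1 adds branch points. Glycogen phosphorylase (PYGL, PYGB, PYGM) releases glucose-1-phosphate from chain ends, while PPP1R3 proteins tether protein phosphatase 1 to glycogen, where it activates the synthase and inactivates the phosphorylase. GYS2 and PYGL are the isoforms known from liver, GYS1 is the muscle and general isoform, and PYGB is known from brain.

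Depth ran from 16049686 reads (PLC, 25 mM) to 30279716 reads (PLC, 5 mM), and 3 reads, taken here as the floor for a count of 0, corresponded to at most 0.187 CPM. The hepatocyte markers ALB, APOA1, APOB, TTR, SERPINA1, TF, HNF4A and AFP were all above 0.5 FPKM in Huh7 cells. In PLC cells 7 of the 8 were, with TTR at 4 and 0 reads, and their summed level was 646 and 1419 FPKM against 4775 and 4910 FPKM in Huh7 cells. ALB, APOB and AFP carried most of these sums, and HNF4A went the other way, with 35.0 and 38.5 FPKM in PLC cells against 29.0 and 31.1 FPKM in Huh7 cells. None of the 3 leukocyte, 3 stellate or fibroblast and 2 muscle markers reached 0.5 FPKM in any library, with CD163 and MYH7 at 0 reads throughout. The endothelial markers disagreed. PECAM1 had 2.37 and 2.55 FPKM in Huh7 cells and at most 0.290 FPKM in PLC cells. VWF had 0 reads in both Huh7 libraries, and 2 and 0 reads in the PLC libraries. Of the epithelial markers, KRT8 had 151 to 173 FPKM and KRT18 150 to 248 FPKM over the libraries. EPCAM had 3.33 and 4.46 FPKM in Huh7 cells and at most 0.0544 FPKM in PLC cells. FPKM (reads scaled by the length of the gene and by the total of the library) is the level used below, so that genes of unequal length can be compared. In RNA from a whole culture, a lower level in every cell and a smaller fraction of expressing cells cannot be told apart.

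The difference between the lines was large for 5 of the members, and the promoters of 4 of these are shown as the sequence context of the genes whose levels contrasted most and for which RefSeq lists a promoter. Each line gives the 250 bases before the RefSeq start site, 5′ to 3′ on the gene's strand, with matches to 4 motifs in capitals: the E-box CACGTG, the TATA motif TATAAA, the GC box GGGCGG and the CCAAT box CCAAT, on either strand. PYGL and PPP1R3C were higher in Huh7 cells and GBE1 and UGP2 in PLC cells.
PYGL, chr14:50944484-50944733, GRCh38.p14, minus strand: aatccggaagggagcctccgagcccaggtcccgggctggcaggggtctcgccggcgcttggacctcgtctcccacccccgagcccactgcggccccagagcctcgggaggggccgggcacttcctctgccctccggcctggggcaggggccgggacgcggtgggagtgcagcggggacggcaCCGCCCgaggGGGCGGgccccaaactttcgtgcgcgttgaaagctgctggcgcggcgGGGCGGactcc
PPP1R3C, chr10:91633072-91633321, GRCh38.p14, minus strand: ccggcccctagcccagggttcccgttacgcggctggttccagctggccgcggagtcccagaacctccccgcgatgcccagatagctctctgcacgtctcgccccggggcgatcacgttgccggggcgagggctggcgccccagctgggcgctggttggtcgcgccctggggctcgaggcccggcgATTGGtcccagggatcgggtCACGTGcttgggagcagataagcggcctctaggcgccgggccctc
GBE1, chr3:81761646-81761895, GRCh38.p14, minus strand: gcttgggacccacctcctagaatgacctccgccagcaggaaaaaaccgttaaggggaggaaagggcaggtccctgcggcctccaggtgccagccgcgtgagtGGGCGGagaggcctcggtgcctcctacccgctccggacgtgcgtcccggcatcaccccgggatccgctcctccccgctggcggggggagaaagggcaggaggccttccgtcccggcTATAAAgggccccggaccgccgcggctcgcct
UGP2, chr2:63840719-63840968, GRCh38.p14, plus strand: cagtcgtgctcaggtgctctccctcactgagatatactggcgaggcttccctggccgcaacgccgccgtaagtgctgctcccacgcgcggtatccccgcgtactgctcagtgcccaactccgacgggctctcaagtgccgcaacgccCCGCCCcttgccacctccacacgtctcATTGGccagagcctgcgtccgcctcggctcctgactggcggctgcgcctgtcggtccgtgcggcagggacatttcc
All 4 start sites coincide with an exon start of the deposited table. PYGL had 3 GC boxes and no E-box, PPP1R3C an E-box and a CCAAT box, GBE1 a TATA motif and a GC box, and the UGP2 window shown a GC box and a CCAAT box. RefSeq lists another promoter of UGP2 (chr2:63841646-63841895, not shown), which had 2 GC boxes and no CCAAT box. Of the 7 members with a RefSeq promoter, the E-box was present in PPP1R3C and GYG1, and it was present in 6.34% of all 35116 promoters in windows of the same length. The GC box was in 42.6%, the CCAAT box in 32.0% and the TATA motif in 10.7% of all promoters. An exact pair of CACGTG E-boxes 5 bases apart, a strict form of the layout known as the carbohydrate response element, was in none of the members' windows and in 1 of all 35116. Its absence from 7 genes thus carries no information, and looser matches to the element were not searched for. These letters are a description of the windows and say nothing of binding in either line.

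UGP2 and GBE1, which supply the activated sugar and the branches, were the members with the highest levels in PLC cells and stood several times above Huh7 cells at both glucose concentrations. UGP2 (chromosome 2, 63840940 to 63891562 of GRCh38, as are all positions below) had 12.2 FPKM at 5 mM and 13.1 FPKM at 25 mM in Huh7 cells, against 66.3 and 58.8 FPKM in PLC cells. GBE1 (chromosome 3, 81489703 to 81761645) had 12.9 and 12.4 FPKM in Huh7 cells and 88.8 and 100.4 FPKM in PLC cells. Both PLC libraries were above both Huh7 libraries for both genes, without overlap. The share of all genes ordered in this way was not counted, so here and below such an order is a description only. Lines were compared with edgeR's quasi-likelihood test on the counts of all 4 libraries, with line and glucose as terms, 1 residual degree of freedom and Benjamini-Hochberg adjustment over 23217 genes. The pair of libraries of a line differ in glucose and are not replicate cultures. The SEs and p-values rest on how far the libraries spread around the additive fit. That spread was moderated for each gene by the spread of all genes tested, so it is largely borrowed from them. Variation of cultures is not measured. UGP2 was 4.96-fold higher in PLC cells (log2 fold change 2.31, SE 0.22, adjusted p = 2.2e-06), and GBE1 was 7.49-fold higher (log2 fold change 2.90, SE 0.22, adjusted p = 2.6e-07, same edgeR test). Lines differed at this threshold for 42.9% of all genes tested, 21.1% higher in PLC and 21.8% higher in Huh7 cells, against 5 of the 8 members tested (2 and 3). GYS2 had too few reads to be tested.

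The mRNA level of the branching enzyme relative to the synthases was higher in both PLC libraries than in both Huh7 libraries, a ratio that was not tested as such. Within a library, GBE1 had 1.04 and 0.860 times the summed FPKM of GYS1 and GYS2 in the Huh7 libraries (5 mM first), and 6.19 and 5.59 times in the PLC libraries. No other annotated gene shared a 50-base window with GBE1 or UGP2, and the genes that lie within them share no exon base with them.

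GYG1, GYS1 and PYGB had levels that the same test did not separate between the lines. GYS1 (chromosome 19, 48968130 to 48993310) had 12.5 and 14.4 FPKM in Huh7 cells and 14.3 and 17.5 FPKM in PLC cells. Its lowest level was in Huh7 cells at 5 mM and its highest in PLC cells at 25 mM, while the middle pair (14.4 and 14.3) overlapped within counting error. The fitted difference was 0.24 on the log2 scale (SE 0.23, adjusted p = 0.423, edgeR), with PLC cells higher at both concentrations. GYG1 (chromosome 3, 148991408 to 149031775) had 8.45 and 8.51 FPKM in Huh7 cells and 9.30 and 7.02 FPKM in PLC cells, so that the PLC libraries lay on either side of Huh7 cells (log2 fold change -0.06, SE 0.24, adjusted p = 0.856, edgeR). PYGB (chromosome 20, 25248085 to 25298012) had 32.4 and 33.8 FPKM in Huh7 cells and 29.4 and 23.8 FPKM in PLC cells. Both PLC libraries were lower than both Huh7 libraries for PYGB, but by less than the fit resolved (log2 fold change -0.32, SE 0.22, adjusted p = 0.278, edgeR). GYG1 shares 21.8% of its exon bases with HLTF on the opposite strand, and whether the counting used strand is not given in the sources used here.

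**Figure D1:**
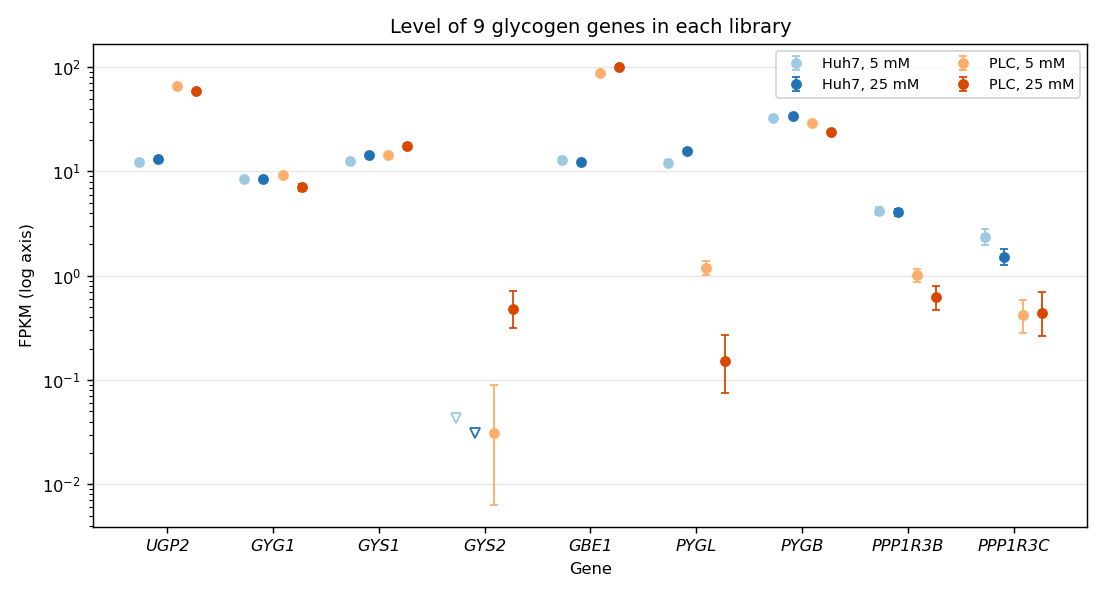
Level of each gene (FPKM, log axis) in the 4 libraries, with 95% counting intervals as bars and open triangles at the level of 3 reads where 0 reads were counted. UGP2 and GBE1 lie between 58.8 and 100.4 FPKM in PLC cells against 12.2 to 13.1 in Huh7 cells, PYGL lies at 0.151 FPKM in PLC cells at 25 mM, and GYS1, GYG1 and PYGB stay close together.

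PYGL, the liver phosphorylase, showed the largest difference between the lines of the members tested and the largest ratio between glucose concentrations among those above 0.5 FPKM. PYGL (chromosome 14, 50857891 to 50944483) had 1173 reads at 5 mM and 2152 reads at 25 mM in Huh7 cells (12.1 and 15.7 FPKM). In PLC cells it had 163 reads at 5 mM and 11 reads at 25 mM, or 1.18 and 0.151 FPKM. Both PLC libraries were below both Huh7 libraries, and the gap was 10.2-fold at 5 mM (95% counting interval 8.65 to 12.1) and 104-fold at 25 mM (58.2 to 209). The fitted log2 fold change of PLC against Huh7 cells was -4.60 (SE 0.57, adjusted p = 2.8e-05, edgeR). Over the 4 libraries, the profile of PYGL was closest to those of MAGEB2, UTS2R and BEX4 among 11776 protein-coding genes, with Euclidean distances of 0.595, 0.648 and 0.689 between centred log2(FPKM + 0.1) values. MAGEB2, for example, had 17.3 and 19.3 FPKM in Huh7 cells and 1.36 and 0.388 FPKM in PLC cells. Such closeness over 4 points is a description only.

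Within a library, the phosphorylase reads could be divided between the isoforms, since PYGL and PYGB share no 50-base window in the annotated transcripts. PYGL made up 27.2% of the summed FPKM of PYGL and PYGB in Huh7 cells at 5 mM (95% counting interval 25.8 to 28.5) and 31.8% at 25 mM (30.7 to 32.9). In PLC cells its share was 3.87% at 5 mM (3.31 to 4.50) and 0.630% at 25 mM (0.315 to 1.12). PYGB was thus the more abundant phosphorylase mRNA in all 4 libraries. PYGM, the muscle isoform, stayed at 0.177 FPKM or lower. The summed phosphorylases stood at 3.57 and 3.45 times the summed synthases in Huh7 cells, and at 2.15 and 1.34 times in PLC cells.

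Nearly all glycogen synthase mRNA was GYS1 in both lines. GYS2 (chromosome 12, 21536107 to 21604847), the liver synthase, had 0 reads in both Huh7 libraries. There 3 reads would be 0.0437 and 0.0310 FPKM, and the upper limits of the exact 95% intervals were 0.054 and 0.038 FPKM. PLC cells had 3 reads at 5 mM and 25 reads at 25 mM, or 0.0308 and 0.485 FPKM. At 25 mM, PLC cells were at least 15.6-fold higher than Huh7 cells, when 3 reads are put in place of the 0 in the Huh7 library, and the exact 95% interval of the ratio, which also covers the error of the 25 reads, started at 11.8. The share of GYS2 in the summed FPKM of both synthases was 2.70% in PLC cells at 25 mM (95% counting interval 1.76 to 3.95) and 0.215% at 5 mM (0.0444 to 0.626). The count of GYS2 is uncertain, because 85.3% of its exon bases are shared with AC010197.2 on the same strand and 11.7% with SPX on the opposite strand, and a counting tool may leave out reads that fall on several genes. AC010197.2 had 0 reads in both Huh7 libraries, and 6 and 15 reads in the PLC libraries. SPX had 85 and 62 reads in the Huh7 libraries and, in the PLC libraries, 548 and 364 reads.

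PPP1R3B and PPP1R3C, which bring the phosphatase to glycogen in liver and more widely, were both lower in PLC cells. PPP1R3B (chromosome 8, 9136255 to 9151574) had 508 and 698 reads (4.14 and 4.04 FPKM) in the Huh7 libraries, and 175 and 57 reads (1.01 and 0.619 FPKM) in the PLC libraries. PPP1R3C (chromosome 10, 91628442 to 91633071) had 127 and 116 reads (2.34 and 1.52 FPKM) in the Huh7 libraries, and 32 and 18 reads (0.416 and 0.441 FPKM) in the PLC libraries. The lines did not overlap for either gene. PPP1R3B was 5.09-fold higher in Huh7 cells (log2 fold change of PLC against Huh7 -2.35, SE 0.33, adjusted p = 8.4e-05), and PPP1R3C was 4.42-fold higher (log2 fold change -2.15, SE 0.45, adjusted p = 0.0019, both by edgeR). PPP1R3B was the larger part of the summed FPKM of the pair in every library, with shares from 58.4% in PLC cells at 25 mM (95% counting interval 44.9 to 71.7) to 72.7% in Huh7 cells at 25 mM (68.6 to 76.6). The lower limit in PLC cells at 25 mM lies under an equal share, so at that depth the order was not resolved there.

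The glucose comparison asked which genes follow the sugar concentration. A gene was counted as past the threshold when a line held it above 0.5 FPKM at either concentration and the ratio of 25 mM to 5 mM was over 1.5 or under 0.67, with 0.1 added to both FPKM values. In Huh7 cells 8 members had such a level, of which 0 were higher and 1 was lower, against 14.1% of all 21864 genes higher and 13.7% lower (27.8% in either direction). In PLC cells 7 members had it, without GYS2 at 0.485 FPKM, with 0 higher and 2 lower, against 26.2% of 21749 genes higher and 17.0% lower (43.3% in either direction). With 8 and 7 members, these counts do not set the members apart from all genes. The median log2 ratio of the members was 0.04 (Huh7) and -0.31 (PLC), beside 0.04 and 0.11 for all genes. Intervals of ratios given below are exact 95% intervals of the reads, without the added 0.1, and they describe counting error between 2 libraries rather than variation of cultures. In Huh7 cells the interval lay above 1 for 3 members and below 1 for 1, against 25.0% and 19.4% of all genes above 0.5 FPKM. In PLC cells it lay above 1 for 3 members, GYS2 at under 0.5 FPKM among them, and below 1 for 5, against 33.2% and 22.7% of all genes.

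The members past the thresholds were PPP1R3C in Huh7 cells and PYGL and PPP1R3B in PLC cells. PYGL in PLC cells had a ratio of 0.195 (0.127 without the added constant, interval 0.0623 to 0.234), on 163 and 11 reads. In Huh7 cells the same gene had a ratio of 1.30 (interval 1.21 to 1.40), in the opposite direction and within the thresholds. The ratio in Huh7 cells was 10.2 times that in PLC cells (exact interval 5.54 to 21.0), a difference that could not be tested against variation of cultures. Intervals on opposite sides of 1 in the lines were found for 2 of the 7 members above 0.5 FPKM in both lines, PYGL and UGP2, and for 10.2% of all 18108 genes above that level in both. Of the 7 members above 0.5 FPKM in both lines, PYGL and PPP1R3B had a ratio in PLC cells under 0.67 times that in Huh7 cells and 0 had one over 1.5 times, against 17.2% and 23.4% of 18108 genes. Between the same PLC libraries AFP went from 306 to 1011 FPKM, while the 7 other hepatocyte markers together had 339 and 407 FPKM, and the part of either in the PYGL ratio was not tested. PPP1R3B had a ratio of 0.649 in PLC cells (interval 0.447 to 0.833) and 0.977 in Huh7 cells (0.870 to 1.10). PPP1R3C had a ratio of 0.663 in Huh7 cells (0.50 to 0.841) and 1.05 in PLC cells (0.561 to 1.95), where 32 and 18 reads gave an interval on both sides of 1.

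UGP2, GYG1, GYS1, GBE1 and PYGB kept ratios between 0.758 and 1.22. GYS1 was the member whose interval lay above 1 in both lines, with 1.15 in Huh7 cells (1.07 to 1.24) and 1.22 in PLC cells (1.13 to 1.31). GBE1 had 0.956 in Huh7 cells (0.889 to 1.03) and 1.13 in PLC cells (1.10 to 1.16). UGP2 had 1.07 in Huh7 cells (1.01 to 1.14) and 0.888 in PLC cells (0.861 to 0.915). In PLC cells GYG1 and PYGB were both lower at 25 mM, with ratios of 0.758 (0.697 to 0.818) and 0.809 (0.764 to 0.856), while in Huh7 cells their intervals included 1 at 1.01 and 1.04. When libraries were scaled by TMM rather than by total reads, log2 ratios moved by -0.04 (Huh7) and -0.12 (PLC). With TMM the interval of UGP2 in Huh7 cells included 1 (0.982 to 1.11), and GYS1 stayed above 1 in both lines at 1.12 and 1.12. In PLC cells TMM brought GBE1 down to 1.04 (1.01 to 1.07), so most of its rise depended on the scaling. It also lowered UGP2 to 0.816, PYGB to 0.744 and GYG1 to 0.695 there. GYS2 stayed under 0.5 FPKM and its change from 3 to 25 reads in PLC cells was a ratio of 15.7 without the constant (4.80 to 81.4) and 4.47 with it. With the reads of AC010197.2 added and the length of GYS2 kept, an alternative chosen after the data were seen, GYS2 had 0.0925 and 0.775 FPKM in PLC cells, and its ratio of 4.55 would then count as past the upper threshold. This sum takes in reads assigned to AC010197.2 and does not bring back any read left out for falling on both genes.

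A change with glucose shared by both lines was not detected for any member. By the glucose term of the same edgeR fit, 0 of the 8 members tested had an adjusted p under 0.05, and 0 had an unadjusted p under 0.05. DESeq2 and limma also gave 0 members, adjusted and unadjusted, although DESeq2 returned no adjusted p for PPP1R3C. Without a filter on low counts, edgeR gave 0 of 9 members adjusted but 2 unadjusted, with PYGL at the smallest adjusted p (0.288). The share of all genes with an unadjusted p under 0.05 was not counted at that setting. Of all genes, edgeR called 0.379%, 0.0646% higher and 0.314% lower at 25 mM, and 8.51% had an unadjusted p under 0.05. The adjusted p-values ran from 0.769 (PYGL, log2 fold change -0.87, SE 0.54) to 0.999 (GBE1, log2 fold change -0.02, SE 0.20). A shared term averages the lines, and opposite ratios such as those of PYGL partly cancel in it.

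**Figure D2:**
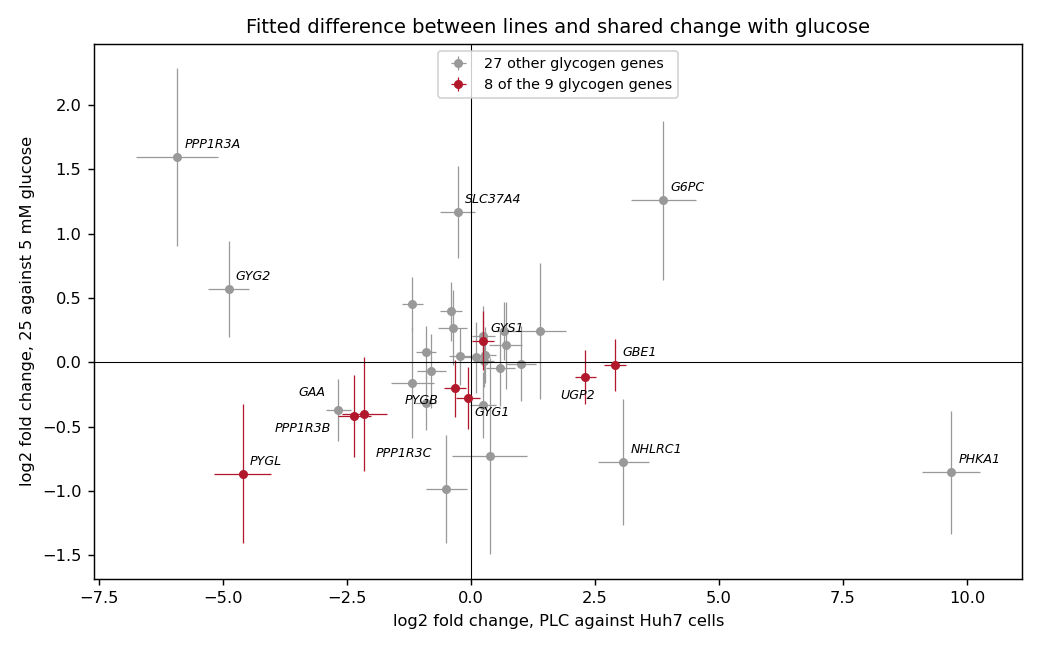
Fitted log2 fold change between PLC and Huh7 cells (horizontal axis) and between 25 mM and 5 mM glucose (vertical axis) from the edgeR fit, with bars of 1 SE, for 8 of the 9 genes (red) and 27 other glycogen genes (grey). The red points spread from -4.60 to 2.90 along the line axis and from -0.87 to 0.17 along the glucose axis.

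The wider glycogen machinery was read from 27 other genes, for phosphorylase kinase, further phosphatase subunits, regulators and glucose release. Between the lines 13 of the 27 differed by the edgeR test, 5 higher in PLC and 8 higher in Huh7 cells, where the background was 42.9% of all genes. PHKA1, the muscle form of the alpha subunit of phosphorylase kinase, which switches phosphorylase on, had 0 and 8 reads in the Huh7 libraries, and in the PLC libraries 5965 and 1448. PLC cells thus stood at least 1404-fold above Huh7 cells at 5 mM, against 3 reads in place of 0 (the exact 95% interval started at 1141), and 339-fold above at 25 mM (172 to 787). The liver form PHKA2 had 12.8 and 14.5 FPKM in Huh7 cells and 7.84 and 13.5 FPKM in PLC cells, and its share of the summed FPKM of both forms was at least 99.7% in Huh7 cells but 20.2% and 48.6% in PLC cells. GYG2, the glycogenin known from liver, had 12.2 and 12.2 FPKM in Huh7 cells and 0.219 and 0.723 FPKM in PLC cells (log2 fold change -4.88, SE 0.41, adjusted p = 7.9e-07, edgeR). Its share of the summed FPKM of GYG1 and GYG2 was 59.0% and 58.9% in the Huh7 libraries against 2.30% and 9.33% in the PLC libraries. The GYG2 and PHKA2 shares were added after the values had been seen, and which form is the larger depended on the division by length for GYG2 in Huh7 cells (40.8% to 40.9% by reads alone) and for PHKA2 in PLC cells at 25 mM (56.0%).

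Other members of the machinery that differed between the lines belonged to several steps. GAA, which degrades glycogen in lysosomes, had 16.9 and 12.7 FPKM in Huh7 cells and 2.44 and 2.17 FPKM in PLC cells, so that Huh7 cells were 6.36-fold higher (adjusted p = 2.5e-06, edgeR). NHLRC1, an E3 ligase that acts with the glycogen phosphatase EPM2A, was 8.44-fold higher in PLC cells (adjusted p = 3.2e-04, edgeR), while EPM2A was 1.73-fold higher in Huh7 cells (adjusted p = 0.0392, edgeR). The catalytic phosphatase subunits PPP1CA and PPP1CC were 1.87-fold and 2.27-fold higher in Huh7 cells, and the synthase kinase GSK3B 1.88-fold. PPP1R3A, the muscle glycogen-targeting subunit, had 38 and 144 reads in the Huh7 libraries against 0 and 2 in the PLC libraries, and PPP1R3F was 2.26-fold higher in Huh7 cells. PPP1R3E was 2.01-fold and PGM1, which interconverts glucose phosphates, 1.59-fold higher in PLC cells. G6PC, the catalytic subunit of glucose-6-phosphatase, had 4 and 7 reads in the Huh7 libraries, and 47 and 85 in the PLC libraries. Adjusted p-values of these 8 genes by edgeR ran from 7.6e-05 (PPP1R3A) to 0.0447 (PPP1R3F).

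With glucose, 1 of the 23 other genes with FPKM over 0.5 passed the threshold upwards in Huh7 cells and 1 downwards, PPP1R3A with a ratio of 2.34 and NHLRC1 with 0.362. All genes passed in 14.1% upwards and 13.7% downwards in that line. In PLC cells 6 of 25 passed upwards and 2 downwards, where all genes passed in 26.2% and 17.0%. With TMM scaling the numbers were 5 and 4, while those of all genes went from 5709 and 3700 to 4804 and 4560. SLC37A4, the transporter that brings glucose-6-phosphate to glucose-6-phosphatase, had 2.18 FPKM at 5 mM and 9.68 FPKM at 25 mM in PLC cells, a ratio of 4.28, and 4.91 and 6.32 FPKM in Huh7 cells, a ratio of 1.28. G6PC had a ratio of 2.88 in PLC cells (0.356 and 1.21 FPKM). GYG2 (2.58), PHKA2 (1.71), PPP1CC (1.68) and PPP1R3G (1.56) were the other genes higher in PLC cells at 25 mM. PHKA1 went from 31.0 to 14.2 FPKM there, a ratio of 0.460, and STBD1, a glycogen-binding protein, from 1.45 to 0.547 FPKM, a ratio of 0.418. In the edgeR fit of a shared change 0 of the 27 had an adjusted p under 0.05 and 4 an unadjusted p under 0.05, against 8.51% of all genes unadjusted. DESeq2 and limma gave 0 adjusted, with 2 and 4 unadjusted. Without a filter on low counts edgeR called 1 of the 27, SLC37A4 (adjusted p = 0.0115).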

How the data were processed

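RNA-seq was available from Huh7 and PLC cells at 5 mM and 25 mM glucose, with 1 library each. The authors deposited counts of reads per gene, without normalization, together with gene lengths. Per the labels, HISAT2 and featureCounts were used on hg38, and their versions, the annotation release and the strand setting are not given in the sources used here. Of 59657 lines, 5 that hold a broken entry for ANK2 were left out. FPKM was calculated from counts, lengths and library totals (16049686 to 30279716 reads), which set the counting precision. Intervals are exact (Clopper-Pearson, 95%) and, like the floor of 3 reads, cover counting error only.

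The line and glucose terms were tested with edgeR 4.0.16 (quasi-likelihood test, TMM, filterByExpr, Benjamini-Hochberg over 23217 genes, threshold 0.05). DESeq2 1.42.0 and limma 3.58.1 were alternatives. Other alternatives were the added constant, scaling, filters and thresholds. Scripts were tested on simulated data. Gene classes were taken from GENCODE 44 by symbol (38133 found), and promoters from RefSeq on GRCh38.p14 (7 of 9 members).

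The members and lists were chosen with earlier results of these data known. Genes named are the members, genes overlapping them, listed glycogen genes past a threshold, and the 3 protein-coding genes (at least 100 reads in 1 library) with profiles nearest to the member with the largest fitted change. PYGM and G6PC3 fall outside that rule and were named after their values were seen.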

Additional observations from a re-analysis of the deposited data

Results flagged for a closer look

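For 5 of the 29 members and other glycogen genes above 0.5 FPKM in both lines, against 10.2% of all 18108 genes, the ratio of 25 mM to 5 mM glucose lay above 1 in one line and below 1 in the other, with both counting intervals excluding 1 (ratios here have nothing added). No test of that gap against variation of cultures could be made, since each condition had 1 library per line, so the difference was not tested. PYGL was the member with the widest gap, with a ratio in PLC cells of 0.0977 times that in Huh7 cells. UGP2 had 0.827 times, and its interval in Huh7 cells included 1 under TMM scaling. Of the other glycogen genes, PPP1R3E was lower in Huh7 (0.844) and higher in PLC cells (1.30), so that the ratio in PLC cells was 1.54 times that in Huh7 cells. EPM2A (0.798 and 1.28) had 1.60 times, and G6PC3 (0.823 and 1.43) had 1.74 times. For these 3 genes the intervals stayed on opposite sides of 1 under TMM scaling. PLC cells at 25 mM were also the library with the fewest reads (16049686), and the part of depth in these ratios was not tested.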

How the results depend on the processing

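The 5 calls between the lines held in each of the 6 refits (DESeq2, limma, RLE scaling, a stricter or no filter on low counts, and no glucose term), the 3 members not called stayed so, and without a filter GYS2 was called as well (3 members higher in PLC cells), and the ratio between the ratios of the lines stayed within its interval in 16 of 16. The edgeR fit compares the glucose concentrations within each line. No pairing by replicate number could be made, since the labels give none, and with 1 library for each condition none could be left out. Without the cell line block the shared log2 fold change turned positive for GBE1 (0.037) and PYGL (0.22), neither of which was called. The 1 member lower in Huh7 cells became 0 with 1 added to FPKM and 0 with a ratio under 0.5. The 2 members lower in PLC cells became 1 with 1 added, 1 with FPKM over 0.5 in both libraries, and 1 with a ratio under 0.5, while with no filter on FPKM 1 member (GYS2) was higher. With 1 added, the ratio of PYGL in PLC cells was 0.527. Without division by length the share of PPP1R3B was 76.0% to 85.7%, that of GYG2 in Huh7 cells 40.8% to 40.9%, and that of PHKA2 in PLC cells at 25 mM 56.0%. Over all genes the edgeR test of a shared change called 15 higher and 73 lower at 25 mM. It called 242 and 284 with no filter on low counts, 0 and 27 with at least 10 counts in every library, and 0 and 0 without the cell line block, while DESeq2 called 63 and 131 and limma 0 and 21. Between lines, 4897 and 5072 genes became 3171 and 3169 with at least 10 counts in every library. The genes past the ratio thresholds in Huh7 cells (3081 higher, 2987 lower) ranged from 1556 to 5847 higher and 1407 to 5352 lower over the filters and constants tried, and those in PLC cells (5709 higher, 3700 lower) from 3216 to 8409 and 2037 to 7000. Ratios of the members stayed within their intervals in 56 of 68 alternatives and isoform shares in 25 of 40. Depth limits GYS2 (25 reads or fewer), PPP1R3C (32 or fewer) and, at 25 mM, PYGL (11 reads) in PLC cells.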
